A study of Mus musculus with 15 samples.

Results

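The genes that hold neighbouring endothelial cells together were examined in RNA from cultured mouse endothelial and stromal cells. The set consists of 10 genes of 44674 in the count table, chosen by symbol: Cdh5, Pecam1, Cldn5, Esam, Jam2, Jam3, F11r, Tjp1, Ocln and Jup. All 10 passed the filter on low counts that left 19401 genes for testing. Bulk RNA-seq covered 15 libraries in 8 conditions: P0 Emcn+ BMECs (bone marrow endothelial cells), P0 Emcn- BMECs, lung ECs, BM MSC (bone marrow mesenchymal stromal cells) and Emcn- BMECs at passages 1 to 4 (P1 to P4). Each condition had 2 libraries except P4, which had 1. Emcn is endomucin, a surface sialomucin, and it was the gate that separated the EC populations. By the study's methods the ECs came from adult Tie2-CreERT2;Rosa26-tdTomato mice given tamoxifen and were sorted as CD45- and tdTomato+ cells, so that membership rests on a reporter recombined by a Tek promoter-driven Cre. The lung cells were the Emcn- fraction by the methods and not by their labels. BM MSC were tdTomato+ cells of Osx-Cre;Rosa26-tdTomato mice, grown in a stromal medium where the ECs were grown in EGM-2. The labels give the genotype of every sample as WT and sort the libraries into 4 batches. P0 and lung libraries lie in batches a and d, passaged and BM MSC libraries in batches b and c, so that P0 or lung conditions and batch cannot be told apart in comparisons with passaged cells or BM MSC.

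Endothelial cells seal a vessel wall with adherens junctions, in which VE-cadherin (Cdh5) binds its like on the next cell and is tied to the cytoskeleton by catenins such as plakoglobin (Jup). Tight junctions lie beside them and consist of claudins, occludin (Ocln) and junctional adhesion molecules (JAMs) anchored on scaffold proteins such as ZO-1 (Tjp1). Pecam1 (CD31) is an immunoglobulin-like adhesion molecule concentrated at the contact line, where leukocytes cross. Cdh5, Pecam1, Cldn5 and Esam are classical endothelial genes, whereas Jam3, Tjp1 and Jup are transcribed in many tissues.

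Levels are given as CPM, the counts of a gene scaled to the library total, and comparisons between genes as CPM per kilobase of merged exons in the GENCODE M21 annotation of GRCm38. Library totals ran from 9914620 to 39718807 counts, so that 3 counts, the limit a count of 0 allows, stand for 0.0755 to 0.303 CPM. In these bulk libraries fewer cells of a type and less RNA per cell cannot be told apart. The summed CPM of 10 endothelial markers other than the junction genes was 3642 to 4229 in P0 Emcn+ BMECs, 64.6 and 120.5 in P0 Emcn- BMECs, 113 and 486 in lung ECs, 22.4 and 120.4 in BM MSC and 35.1 to 59.0 in passaged cells. Mesenchymal markers summed to 246 and 324 CPM in P0 Emcn+ BMECs and to 4809 to 21940 CPM in every other library, those labelled endothelial included. All 10 endothelial markers had at least 1 count in all P0, lung and BM MSC libraries, some of them near the floor. In P0 Emcn- replicate 2 Sox18 had 2 counts, Erg 5 and Robo4 6, and Tek supplied 49.4 of the 64.6 CPM. Emcn itself stood at 631 and 798 CPM in P0 Emcn+ BMECs, at 12.7 and 2.52 in P0 Emcn- BMECs and at 32.6 and 124.6 in lung ECs. Single libraries stand apart within their condition: P0 Emcn- replicate 1 and BM MSC replicate 2 held more Cdh5, Pecam1, Cldn5, Esam and F11r than their partners. Lung replicate 2 held more Cdh5, Pecam1, Esam and F11r than lung replicate 1, and less Cldn5.

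Cdh5 (chr8:104101625-104144511, plus strand) was the most abundant junction gene of P0 Emcn+ BMECs per kilobase, at 1480 and 1218 CPM per kilobase, and had 6222 and 5118 CPM in replicates 1 and 2. P0 Emcn- BMECs had 119.5 and 6.35 CPM, lung ECs 39.5 and 171 CPM, and BM MSC 7.86 and 156 CPM. The passaged cells lay below all of these, with 1.13 and 2.33 CPM at P1, 0.409 and 0.497 at P2, then 0.0564 and 0.185 at P3 and 0.220 for P4. P3 rested on 2 and 5 counts. The P0 Emcn+ libraries overlapped with no other condition, whereas P0 Emcn-, lung and BM MSC overlapped with each other.

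Pecam1 (chr11:106654217-106750628, minus strand) was also highest in P0 Emcn+ BMECs, but had about the same level at every passage. It measured 2474 and 2264 CPM in P0 Emcn+ BMECs, 47.8 and 5.14 in P0 Emcn- BMECs, 36.9 and 163 in lung ECs and 15 and 101.3 in BM MSC. In the 7 passaged libraries it kept between 10.7 and 14.4 CPM. Per kilobase, the ratio of Pecam1 to Cdh5 was 0.268 and 0.298 in P0 Emcn+ BMECs. It was 7.16 and 4.15 at P1, 22.7 and 16.2 at P2, and 138 and 39.0 at P3, the last on few Cdh5 counts. The Pecam1 transcripts left in passaged cells were not accompanied by Cdh5 in the proportion seen in P0 Emcn+ BMECs.

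Cldn5 (chr16:18776847-18778262, plus strand, a gene of 1 exon) encodes the claudin that sets the tightness of the endothelial barrier. Its level was 407 and 246 CPM in P0 Emcn+ BMECs, 9.44 and 0.202 in P0 Emcn- BMECs, 2.35 and 1.06 in lung ECs and 0.225 and 2.59 in BM MSC. At P1 it was 0.298 and 0.430 CPM, and from P2 to P4 between 0 and 5 counts per library remained. Esam (chr9:37528078-37538319, plus strand), an immunoglobulin-like adhesion molecule of endothelium and platelets, had 455 and 440 CPM in P0 Emcn+ BMECs. It had 9.82 and 0.504 CPM in P0 Emcn- BMECs, 7.34 and 36.6 in lung ECs, 0.533 and 11.8 in BM MSC and at most 0.538 in passaged cells. Per kilobase, lung ECs held more Esam than Cldn5 in both libraries, with 2.56 and 12.8 against 1.66 and 0.749 CPM per kilobase.

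The JAM genes did not move as a block. F11r (chr1:171437535-171464603, plus strand), which encodes JAM-A, had 351 and 332 CPM in P0 Emcn+ BMECs, 9.89 and 0.504 in P0 Emcn- BMECs, 40.5 and 55.0 in lung ECs and 1.32 and 9.5 in BM MSC. Lung was second for F11r, clear of the conditions below it. Jam2 (chr16:84774123-84825928, plus strand), which encodes JAM-B, had its lowest values, 6.69 and 14.9 CPM, in P0 Emcn+ BMECs. All other libraries lay above them, with 35.2 and 24.9 CPM in P0 Emcn- BMECs, 83.0 and 76.2 in lung ECs, 39.2 and 131 in BM MSC and 51.9 to 61.5 in passaged cells. Jam3 (chr9:27097384-27155421, minus strand), which encodes JAM-C, ranged only from 27.2 to 56.4 CPM over all 15 libraries. Its exons share 1159 bases with the antisense gene Gm48796, and the sources do not state whether strand was used in counting.

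Tjp1 (chr7:65296165-65527781, minus strand) and Jup (chr11:100368958-100397763, minus strand) were highest in P0 Emcn+ BMECs and were also present in every other library. Tjp1 measured 1007 and 829 CPM in P0 Emcn+ BMECs and 304 and 286 in BM MSC, the second condition in order. P0 Emcn- BMECs with 118.5 and 85.1, lung ECs with 73.4 and 122.8 and the passaged cells with 99.0 to 135 CPM overlapped. Jup measured 276 and 295 CPM in P0 Emcn+ BMECs and 17 to 49.7 CPM in all other libraries. Within the passages Jup separated by batch rather than by passage: the batch c libraries held 43.7 to 49.7 CPM and the batch b libraries 21.6 to 30.8. Batch and replicate are the same split among these libraries and cannot be told apart. Ocln (chr13:100496507-100552718, minus strand) encodes occludin, a membrane protein of tight junctions, and had few counts anywhere. Lung ECs had the most, with 54 and 103 counts (1.49 and 4.75 CPM), P0 Emcn+ BMECs had 7 and 33 counts, and BM MSC had 4 and 14 counts. P0 Emcn- BMECs had 1 and 0 counts and the passaged libraries 0 to 3.

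**Figure D1:**
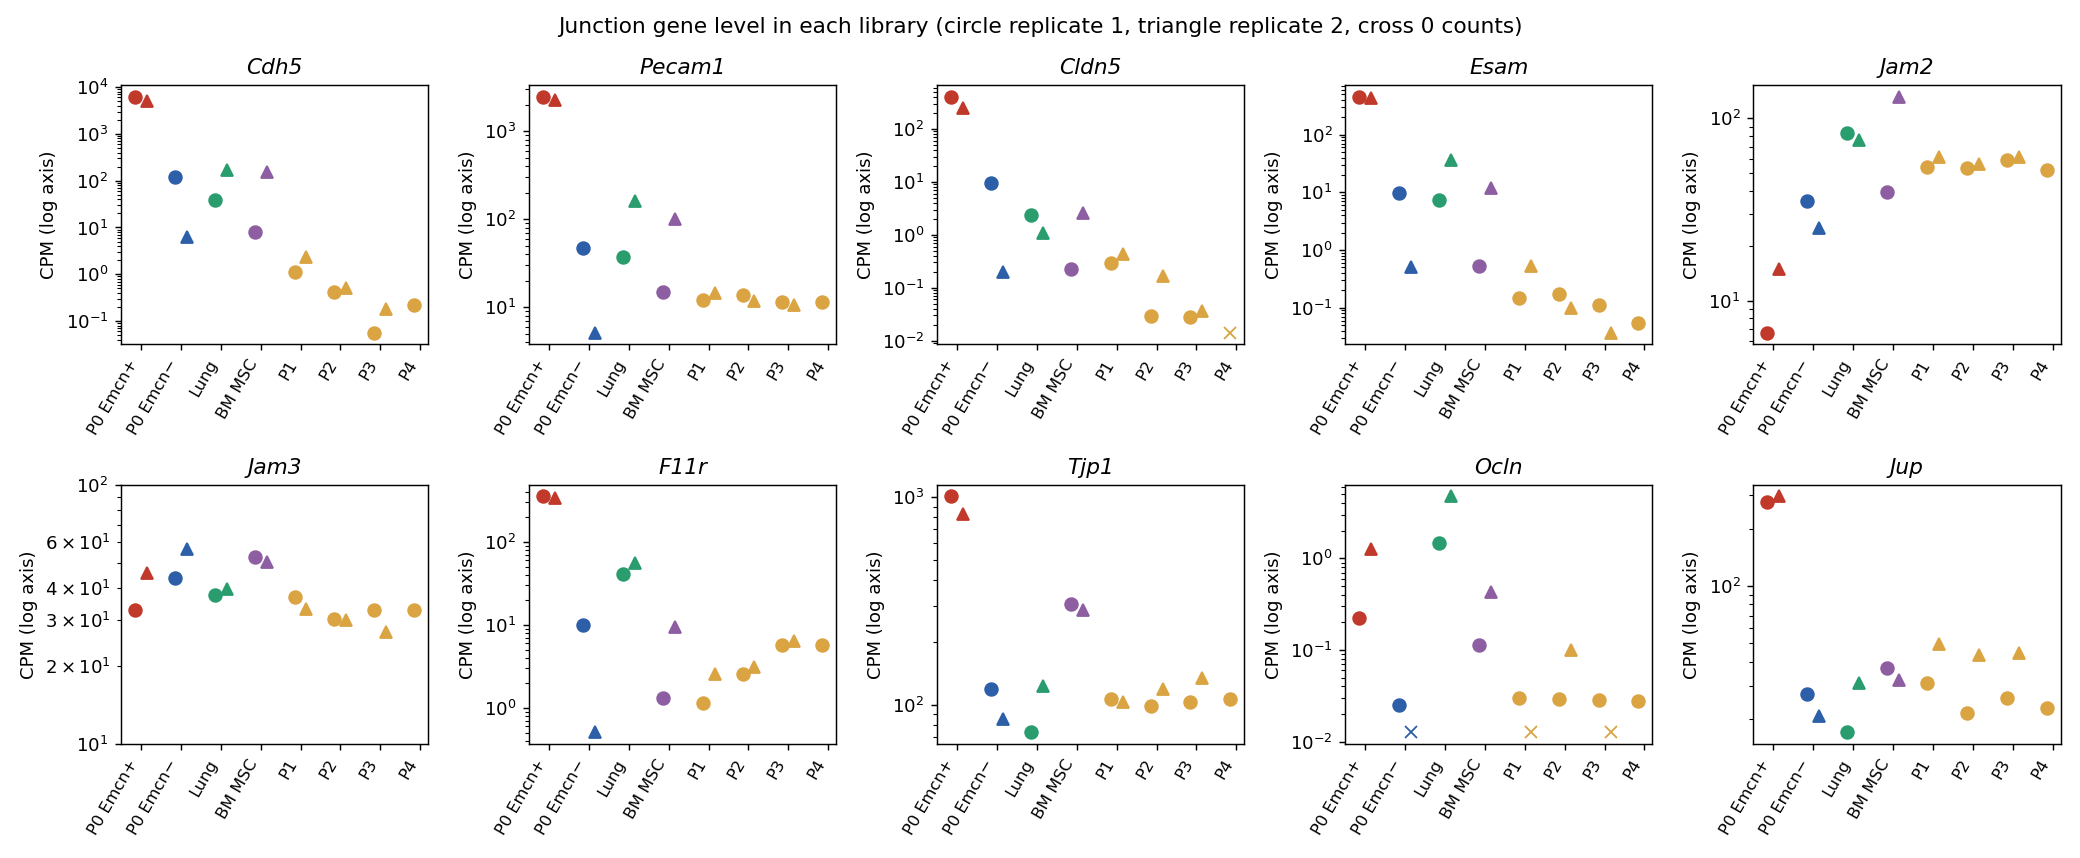
Each panel plots the CPM of 1 junction gene in all 15 libraries on a log axis, with conditions along the x axis, circles for replicate 1, triangles for replicate 2 and crosses for libraries with 0 counts, drawn below the lowest value. The P0 Emcn+ libraries stand highest for 7 genes, for example 6222 and 5118 CPM of Cdh5, while Jam2 has its lowest values there (6.69 and 14.9 CPM) and Ocln its highest in lung (1.49 and 4.75 CPM).

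The first comparison asked which junction genes distinguish Emcn+ from Emcn- BMECs of primary (P0) cultures. The labels do not state whether the Emcn+ and Emcn- libraries of a batch came from 1 culture. The main fit took them as independent, and with the replicate block 8 genes were called as well. Cdh5, Pecam1, Cldn5, Esam, F11r, Tjp1, Ocln and Jup were higher in P0 Emcn+ BMECs, 8 of the 10 genes by both edgeR and DESeq2, and 0 were called lower. Over all tested genes 7.79% were called higher and 11.4% lower, where a call needs an adjusted p under 0.05 in edgeR's quasi-likelihood test together with a log2 fold change beyond 1.5 in either direction. The median log2 fold change of the 10 genes was 5.45 and that of all tested genes -0.06. Macrophage and leukocyte markers moved the same way, with summed levels of 727 and 679 CPM in P0 Emcn+ against 224 and 265 CPM in P0 Emcn- BMECs and 4 of 10 called higher, and their part in the junction values was not tested. Cdh5 was higher by 6.51 ± 1.60 (log2, SE, n = 2 against 2, edgeR adjusted p = 0.0103), Pecam1 by 6.48 ± 1.22 (0.00236), Esam by 6.31 ± 1.41 (0.0062) and Cldn5 by 5.95 ± 1.16 (0.00285). F11r was higher by 5.92 ± 1.06, Jup by 3.60 ± 0.42 and Tjp1 by 3.21 ± 0.27.

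The size of this difference varied between the batches for the endothelial genes more than for Tjp1 and Jup. Within batch d, which holds both replicates 1, the CPM ratio of P0 Emcn+ to P0 Emcn- was 52.1 for Cdh5, 51.7 for Pecam1, 46.4 for Esam, 43.1 for Cldn5 and 35.5 for F11r. Within batch a it was 805 for Cdh5, 440 for Pecam1, 873 for Esam and 659 for F11r. Cldn5 had 2 counts in the P0 Emcn- library of batch a. The ratios for Tjp1 were 8.50 and 9.74, and those for Jup 10.2 and 14.2. P0 Emcn- replicate 1 held Cdh5, Pecam1, Cldn5, Esam and F11r each at 2.02 to 2.90% of their mean P0 Emcn+ level, and replicate 2 at 0.0618 to 0.217%, so that the genes shifted together within a library. Without replicate 1 of P0 Emcn- the fitted log2 fold changes were 9.86 for Cdh5 and 10.68 for Cldn5. Emcn, the sort marker, was also higher in replicate 1 (12.7 CPM) than in replicate 2 (2.52 CPM), and the part of Emcn+ cells in these values was not tested.

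Ocln rested on 40 counts in P0 Emcn+ against 1 in P0 Emcn- BMECs, a CPM ratio of 34.6 with an exact 95% counting interval of 5.86 to 1399. Its call (edgeR adjusted p = 0.0247) was lost without P0 Emcn+ replicate 2, where the adjusted p was 0.157, and without either P0 Emcn- library (0.131 and 0.0783). Jam2 was lower in P0 Emcn+ BMECs by a log2 difference of -1.46 ± 0.48 with an edgeR adjusted p of 0.0399, just inside the fold limit, and so was not called. Without P0 Emcn+ replicate 2 it was called lower at -2.13 (adjusted p = 0.0256), and without replicate 1 it was -0.98 (0.235). Jam2 was also the only member lower at an unadjusted edgeR p under 0.05. Jam3 differed by -0.31 ± 0.19 with an adjusted p of 0.24.

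Measured per kilobase, the JAM family changed its make-up between the conditions. In P0 Emcn+ BMECs Esam supplied 52.0 and 52.6% and F11r 42.3 and 43.7% of the summed CPM per kilobase of Esam, F11r, Jam2 and Jam3, and Jam2 only 0.366 and 0.834%. In P0 Emcn- BMECs Jam3 supplied 51.4 and 79.7% and Jam2 21.8 and 18.6%. Lung ECs were mixed, with 35.2 and 35.4% F11r and 31.8 and 21.6% Jam2. In the passaged cells Jam2 and Jam3 together made up most of the family, with Jam2 between 40.8 and 48.2% and Jam3 between 40.3 and 54.9%. F11r supplied between 2.02 and 11.4% there. In BM MSC, too, Jam2 (27.4 and 48.1%) and Jam3 (69.7 and 34.8%) made up most of the family.

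**Figure D2:**
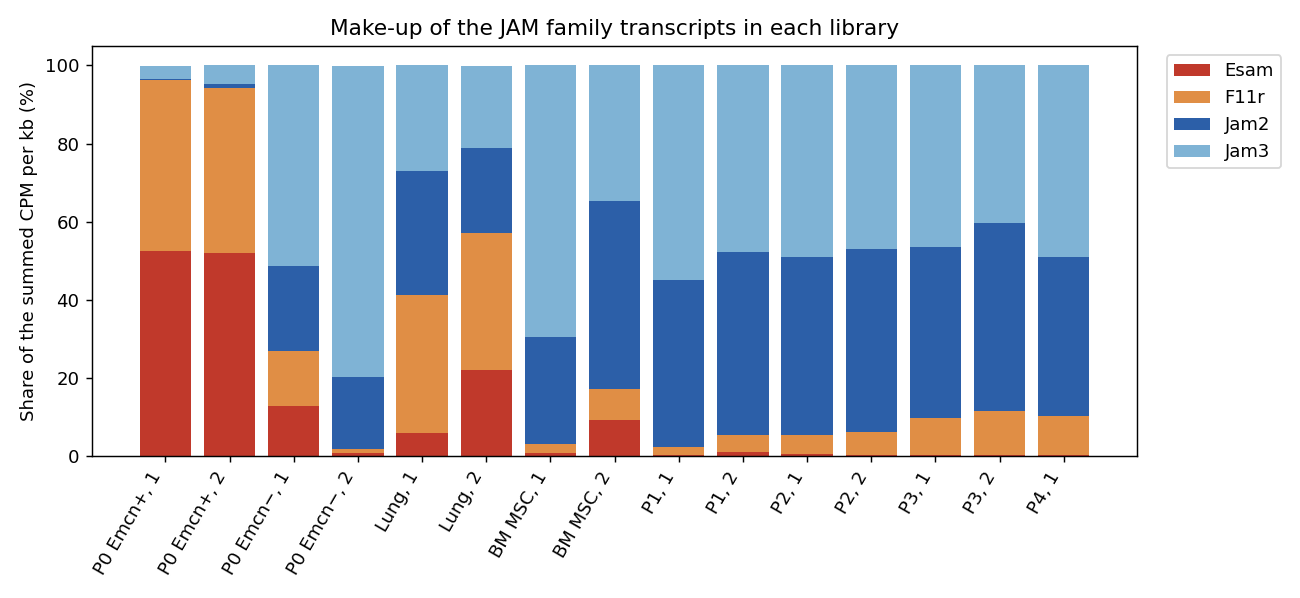
Stacked bars give, for each library on the x axis, the share in percent of the summed CPM per kilobase that each JAM family gene contributes. Esam and F11r fill most of both P0 Emcn+ bars (Esam 52.0 and 52.6%), and Jam2 and Jam3 most of the passaged bars, with the F11r part rising from 2.02 and 4.46% at P1 to 9.53 and 11.4% at P3.

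For junction genes outside the set, a list of 58 covers adherens, tight and gap junctions, desmosomes, other immunoglobulin-like molecules and junction regulators. Of the 54 that were tested, 18 were higher and 8 lower in P0 Emcn+ BMECs, where 7.79% and 11.4% of all tested genes were. The 3 largest rises were Ptprb (the phosphatase VE-PTP, a partner of VE-cadherin) at a log2 fold change of 6.15 ± 1.34, Rasip1 (a Rap1 effector) at 6.12 ± 1.10 and Icam2 (an endothelial adhesion molecule) at 6.03 ± 1.21. The 3 largest falls were Cdh11, a mesenchymal cadherin, at -5.19 ± 0.32, Cldn11, a claudin of myelin and testis barriers, at -5.05 ± 0.66, and the JAM-related Clmp at -4.74 ± 0.23, all with edgeR adjusted p-values under that of Rasip1 (0.00176). In the adherens junction list 6 of 14 genes rose and 3 fell, in the tight junction list 4 of 13 tested rose and 1 fell.

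Of the 10 genes, 5 have a promoter in the RefSeq table of GRCm38.p6: Cldn5, F11r, Tjp1, Ocln and Jup. The 250 bases before the annotated start are shown for Cldn5, which had the fewest counts of the classical endothelial genes outside P0 Emcn+ BMECs, for F11r, whose second highest level was in lung, and for Tjp1 and Jup, which were present in every library. Each is read 5' to 3' on the strand of the gene, with matches to CCGCCC or its reverse complement GGGCGG, the letters of a GC box, in capitals.
Cldn5: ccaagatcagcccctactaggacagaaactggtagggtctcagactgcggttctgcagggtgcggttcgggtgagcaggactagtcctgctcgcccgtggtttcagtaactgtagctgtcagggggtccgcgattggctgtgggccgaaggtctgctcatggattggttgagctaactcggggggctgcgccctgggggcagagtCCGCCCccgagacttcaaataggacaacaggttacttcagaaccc
F11r: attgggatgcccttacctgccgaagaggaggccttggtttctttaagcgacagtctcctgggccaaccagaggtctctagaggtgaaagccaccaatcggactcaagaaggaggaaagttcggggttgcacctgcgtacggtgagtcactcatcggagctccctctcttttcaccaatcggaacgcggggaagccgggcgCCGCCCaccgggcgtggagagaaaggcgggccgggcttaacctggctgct
Tjp1: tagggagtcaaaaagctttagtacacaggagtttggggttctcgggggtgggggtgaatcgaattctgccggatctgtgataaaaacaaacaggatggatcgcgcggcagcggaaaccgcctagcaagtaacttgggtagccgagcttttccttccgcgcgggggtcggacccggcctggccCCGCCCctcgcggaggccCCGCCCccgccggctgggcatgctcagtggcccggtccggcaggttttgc
Jup: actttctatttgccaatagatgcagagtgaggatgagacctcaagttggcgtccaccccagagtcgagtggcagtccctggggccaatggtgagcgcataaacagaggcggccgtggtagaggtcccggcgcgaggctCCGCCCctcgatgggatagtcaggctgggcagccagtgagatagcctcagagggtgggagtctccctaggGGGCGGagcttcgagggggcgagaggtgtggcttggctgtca
The windows lie at chr16:18776597-18776846 (plus strand), chr1:171437311-171437560 (plus), chr7:65371245-65371494 (minus) and chr11:100397791-100398040 (minus). The Tjp1 start used by RefSeq lies inside the longer GENCODE gene. A GC box match was present in the windows of all 5 genes and in 32.7% of the 32851 promoters of the table over the same length. GGAAG or CTTCC, the letters at the core of ETS factor sites, occurred once in F11r, 62 bases before the start, and once in Tjp1, 99 bases before it, and in 64.1% of all promoters. CACCTG or CAGGTG, the E-box read by Snail and Zeb repressors, occurred in F11r and in 1 of the Ocln windows and in 17.2% of all promoters. ACAAT or ATTGT, the core letters of SOX sites, were in none of these windows and in 27.7% of all promoters.

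The comparison of lung ECs with P0 Emcn- BMECs asked how Emcn- endothelial cultures of these organs differ. Ocln was the only junction gene called, higher in lung, against 3.83% of all tested genes called in either direction and 2.13% called higher. The CPM ratio was 134.6 with an exact 95% counting interval of 23.8 to 5349 (157 against 1 count, edgeR adjusted p = 0.0192). The call was lost when replicate 2 of lung (adjusted p = 0.0636) or either P0 Emcn- library was left out (0.119 and 0.0656). F11r was higher by 3.11 ± 0.95 in lung with an adjusted p of 0.0992, and by CPM ratios of 4.10 within batch d and 109 within batch a. Without P0 Emcn- replicate 1 it was called at a log2 fold change of 6.62 (adjusted p = 0.0313), and DESeq2 called it with an adjusted p of 0.0385. The direction of Cdh5, Pecam1 and Esam differed between the batches: lung to P0 Emcn- ratios were 0.331, 0.771 and 0.748 in batch d and 26.9, 31.7 and 72.6 in batch a. Jam2 was higher by 1.47 ± 0.48 with an adjusted p of 0.122.

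The summed markers of epithelium and mesothelium were also higher in lung ECs than in P0 Emcn- BMECs. Of the tested genes, 2 of 4 epithelial and 1 of 5 mesothelial were called higher. In each lung library 6 of the 10 epithelial genes had 0 counts. Krt18 (2.04 and 10.3 CPM) and Krt7 (7.12 and 4.33 CPM) made up most of the epithelial sum. Cldn4 had 0 counts in lung ECs and 4 and 0 in P0 Emcn- BMECs. Msln, at 1.46 and 11.2 CPM in lung ECs, was the largest of the mesothelial genes. The summed level of 10 epithelial genes was 9.47 and 17.1 CPM against 0.906 and 0.605, and that of 6 mesothelial genes 3.62 and 14.3 CPM against 0.705 and 0.706, while P3 replicate 2 had 6.29 CPM of the latter. Macrophage and leukocyte markers were lower in lung, at 24.7 and 22.2 CPM, and 9 of the 10 were called lower than in P0 Emcn- and all 10 lower than in P0 Emcn+ BMECs. Epcam and Cdh1 (E-cadherin) had 0 counts in both lung libraries. Their part in the Ocln and F11r values was not tested. Of the 54 other junction genes, 2 were called, a share no larger than the 3.83% of all tested genes. Both were higher in lung: the desmosomal plakophilin Pkp2 at 2.56 ± 0.56 (log2) and N-cadherin, Cdh2, at 2.04 ± 0.23.

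Set against P0 Emcn+ BMECs, lung ECs had 7 of the 10 genes lower and 1 higher, with 8.48% of all tested genes called lower and 12.6% higher. This comparison shares the P0 Emcn+ libraries with the one above. Cldn5 fell furthest, with a log2 fold change of -7.50 ± 1.26 (edgeR adjusted p = 0.0011), and in both batches its CPM was lower by ratios of 173 (batch d) and 232 (batch a). Cdh5 was lower by -5.73 ± 1.55, Pecam1 by -4.55 ± 1.11, Esam by -4.34 ± 1.28, Jup by -3.55 ± 0.42, Tjp1 by -3.20 ± 0.27 and F11r by -2.81 ± 0.91. Jam2 was higher by 2.92 ± 0.50 (adjusted p = 0.00129), at CPM ratios of 12.4 and 5.12 in the batches. Ocln had a log2 fold change of 2.09 ± 0.91 and an adjusted p of 0.0986, which became 0.0366 with the replicate block. Without lung replicate 1 the calls of Cdh5, Pecam1, Esam and F11r were lost (adjusted p = 0.0997, 0.066, 0.125 and 0.157), leaving 4 of the 10. The F11r call was lost without any 1 of the lung and P0 Emcn+ libraries. Among the other junction genes 5 were higher and 17 lower in lung, the largest being Cldn11 (4.88 ± 0.66), Cdh2 (4.61 ± 0.25) and Clmp (4.27 ± 0.22) upwards and Rasip1 (-5.79 ± 1.08), Icam2 (-5.36 ± 1.16) and the atypical cadherin Cdh13 (-5.30 ± 0.36) downwards.

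BM MSC against P0 Emcn- BMECs asked how far Emcn- cells differ from stroma. Tjp1 and Jam2 were higher in BM MSC, 2 of the 10 genes, with 11.3% of all tested genes called higher and 7.45% lower. Tjp1 rose by 1.63 ± 0.25 (log2, edgeR adjusted p = 0.00111), and without P0 Emcn- replicate 2 it fell under the fold limit at 1.38 (0.00885). In that fit Cldn5 was called lower in BM MSC at -2.71 (adjusted p = 0.0338). Jam2 rose by 1.57 ± 0.48 (0.028). Its call was lost with the replicate block (adjusted p = 0.0653), without BM MSC replicate 2 (log2 fold change 0.49, adjusted p = 0.356) and without either P0 Emcn- library (0.0636 and 0.131). Cdh5, Pecam1, Cldn5, Esam and F11r were not called in either direction. BM MSC replicate 2 held Cdh5 at 2.75% and Pecam1 at 4.28% of the mean P0 Emcn+ level and replicate 1 at 0.139% and 0.634%, while Emcn was 26.7 and 1.24 CPM in these libraries. With that library and P0 Emcn- replicate 1 both left out, a choice made after seeing the data, 1 of the 10 genes was called.

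Outside the set, 5 of the 54 tested junction genes were higher and 3 lower in BM MSC than in P0 Emcn- BMECs, shares no larger than the 11.3% and 7.45% of all tested genes. Macrophage and leukocyte markers were lower in BM MSC, at 25.2 and 37.9 CPM in sum, with 9 of 10 called lower. Desmoplakin, Dsp, the linker of desmosomes to intermediate filaments, had 213 counts in BM MSC and 0 in P0 Emcn- BMECs, at least 51.5-fold higher against 3 counts over the group. Passaged Emcn- cells also held Dsp, from 0.446 and 0.251 CPM at P1 to 7.62 and 2.41 at P3 and 6.71 at P4. BM MSC had 3.59 and 2.59 CPM. The desmosomal Pkp1, also among the 5, had 24 against 0 counts, at least 5.80-fold higher. It had at most 2 counts in any library outside BM MSC and passed the filter only through BM MSC. Its direction was thus fixed in advance and its call is no test. Cldn11 was lower by -8.25 ± 0.84 and Cldn15, a claudin that forms cation pores, by -3.86 ± 0.57.

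**Figure D3:**
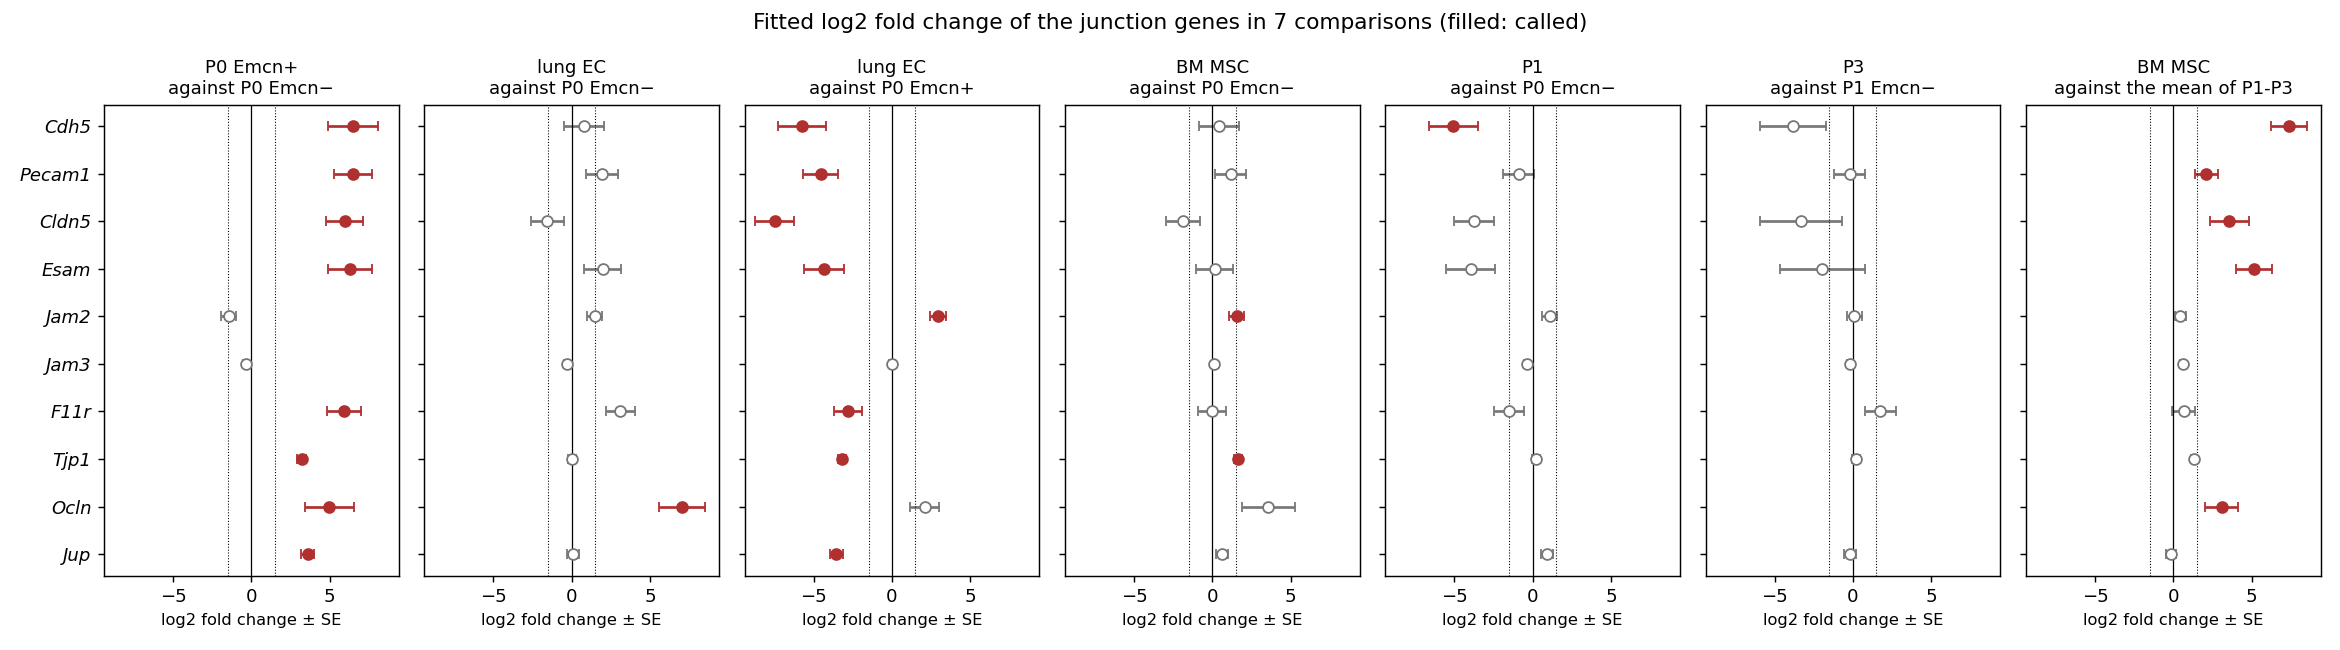
Each panel gives the fitted log2 fold change (x axis) with its SE for the 10 junction genes in 1 of the 7 comparisons, filled where called, with dotted lines at 1.5 and -1.5, and Ocln left out where both groups had at most 3 counts. P0 Emcn+ against P0 Emcn- shows 8 filled points to the right, P3 against P1 shows none, and the error bars of Cdh5, Cldn5 and Esam are wider than those of Tjp1, Jam3 and Jup.

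P1 against P0 Emcn- asked what the first passage changes. Cdh5 was the only junction gene called, lower by a log2 fold change of -5.06 ± 1.55 (edgeR adjusted p = 0.0491), where 3.07% of all tested genes were called lower and 5.77% higher. This call lay at the threshold. It was lost with the replicate block (adjusted p = 0.0786), with either P1 library left out (0.239 and 0.161) and when any 1 of the P0 Emcn+, lung, P2 or P3 libraries, which enter only the estimate of spread and the adjustment, was left out. Without P0 Emcn- replicate 1 the Cdh5 difference shrank to -1.74 (adjusted p = 0.501). The same omission turned the direction of Pecam1 from -0.89 to 1.51, of Cldn5 from -3.74 to 0.97 and of F11r from -1.5 to 2.00. Cldn5 then rested on 22 against 2 counts, a CPM ratio of 1.77 with an exact 95% counting interval of 0.436 to 15.6, which gives no direction. Both P1 libraries nevertheless had less Cdh5 (1.13 and 2.33 CPM) than either P0 Emcn- library (119.5 and 6.35 CPM). Tjp1, at 0.20 ± 0.25, and Jam3, at -0.35 ± 0.19, were not called. Of the other junction genes 2 were higher, Cdh13 (2.18 ± 0.32) and the gap junction gene Gja1 (2.00 ± 0.34), and 3 lower, among them Rasip1 (-4.21 ± 1.29) and the endothelial and pericyte adhesion molecule Mcam (-4.16 ± 0.92).

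P3 against P1 asked what continues after the first passage. None of the 10 genes was called by edgeR or by DESeq2, with 0.222% of all tested genes called. Cdh5 had a log2 fold change of -3.83 ± 2.13 (edgeR adjusted p = 0.476, 0.0392 with only the P1 to P4 libraries in the fit), and F11r one of 1.75 ± 0.97 (0.481 and 0.0593). At an unadjusted p under 0.05, 0 of the 10 genes passed in edgeR, the lowest p being 0.098 for Cdh5.

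A slope on passage number was fitted over the 7 passaged libraries with a term for the batches, a test chosen after seeing these values. Libraries of serial passages may share a culture and were taken as independent. At an edgeR adjusted p under 0.05, 3 of the 8 junction genes that passed its filter changed, where 22.2% of 16690 genes did. Cdh5 fell by 1.25 on the log2 scale per passage (edgeR adjusted p = 0.0198). Cldn5, also among the 3, had a slope of -1.76. It had 10 and 12 counts at P1 and 0 to 5 in each later library. Only P1, where it was highest, brought it over the filter, so a fall was fixed in advance and was not tested. F11r rose by 0.76 per passage (0.009), from 1.13 and 2.58 CPM at P1 through 2.57 and 3.12 at P2 to 5.64 and 6.37 at P3 and 5.72 at P4. In both batches P3 exceeded P1, with CPM ratios of 4.99 and 2.47. The F11r slope lost its call without P1 replicate 1 (adjusted p = 0.104), and the Cdh5 slope without either P1 library (0.178 and 0.0709) or P3 replicate 2 (0.0746). Without any 1 of the libraries of batch b, or P1 replicate 2, Cldn5 no longer passed the filter. Pecam1, Jam2, Jam3, Tjp1 and Jup had slopes between -0.09 and 0.07 with adjusted p-values of 0.205 to 0.842. Over the same passages the summed macrophage and leukocyte markers went from 77.1 and 246 CPM at P1 to 18.3 and 14.7 at P3 and 11.8 at P4, while the endothelial markers summed to 35.1 to 59.0 CPM. Most of that sum came from Tek, with 40.3 and 30.1 CPM at P1 against 15.6 and 14.9 at P3, and Kdr, with 12.3 and 7.96 against 30.1 and 15.5. The scarcer Ecscr had 0.535 and 0.717 CPM at P1 against 0.282 and 0.148 at P3. The part of macrophages in the junction values was not tested.

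**Figure D4:**
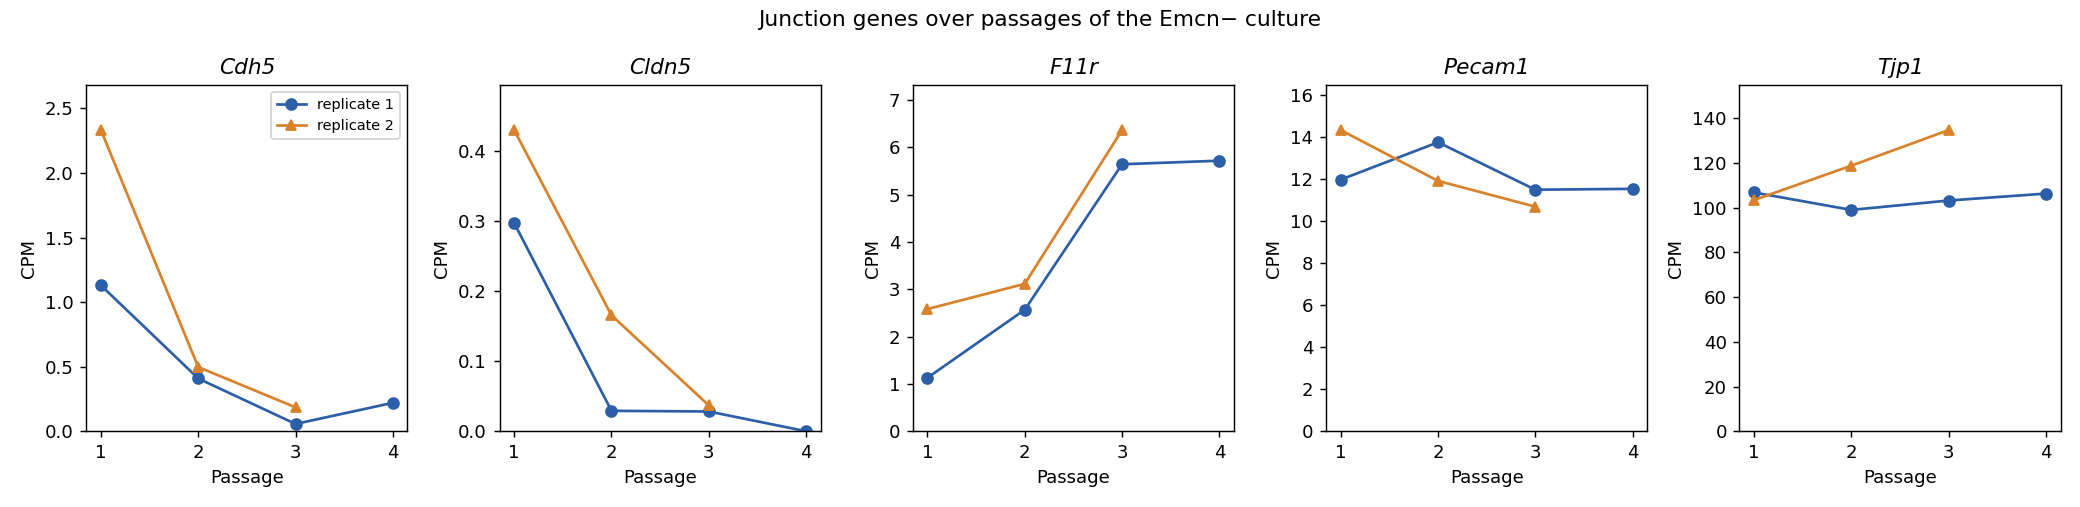
The CPM (linear axis from 0) of 5 junction genes is plotted against passage number, with lines joining the libraries of 1 batch (replicate 1 in batch b, replicate 2 in batch c). Cdh5 and Cldn5 lie lower at P3 than at P1 in both batches, and Cdh5 of batch b goes from 0.0564 CPM at P3 to 0.220 at P4. F11r goes from 1.13 and 2.58 CPM at P1 to 5.64 and 6.37 at P3, and Pecam1 and Tjp1 stay within 10.7 to 14.4 and 99.0 to 135 CPM.

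BM MSC against the mean of P1, P2 and P3 asked whether passaged cells approach stroma in these genes. Serial passages may share a culture, and the fit took their libraries as independent, so its p-values may be too small. Cdh5, Esam, Cldn5, Ocln and Pecam1 were higher in BM MSC, 5 of the 10, with 8.42% of all tested genes called higher and 5.81% lower. The log2 fold changes were 7.39 ± 1.13 for Cdh5 (edgeR adjusted p = 0.00099), 5.15 ± 1.17 for Esam (0.00777), 3.57 ± 1.23 for Cldn5 (0.0454), 3.08 ± 1.07 for Ocln (0.0397) and 2.12 ± 0.73 for Pecam1 (0.0488). With the replicate block, or without BM MSC replicate 2, only Cdh5 remained called. That block is a term for batch, and both BM MSC libraries lie in batch c. Without BM MSC replicate 2 the values were 4.06 for Cdh5, 1.69 for Esam, 1.01 for Cldn5 and 0.22 for Pecam1, on the log2 scale. Without any 1 of the P1, P2 or P3 libraries the calls of Cldn5, Ocln and Pecam1 were lost, leaving 2, and without either P0 Emcn+ library those of Cldn5 and Pecam1, leaving 3. The Cldn5 call was also lost without either lung library. Within batch c, which holds both BM MSC libraries and 1 library each of P1, P2 and P3, the CPM ratios were 81.6 for Cdh5, 27.4 for Esam, 6.66 for Cldn5, 4.72 for Pecam1, 2.48 for Tjp1 and 1.71 for Jam3, on the mean of BM MSC libraries that held 7.86 and 156 CPM of Cdh5. Tjp1, at 1.32 ± 0.19 (adjusted p = 0.000674), and Jam3, at 0.61 ± 0.15 (0.0118), passed the p threshold and not the fold limit. Both their BM MSC libraries lay above all passaged libraries. Of the other junction genes 9 were higher and 2 lower in BM MSC, led by Mcam (5.58 ± 0.62) and Ptprb (5.37 ± 1.05) upwards and by Cldn11 (-6.51 ± 0.78) and Cldn15 (-3.89 ± 0.53) downwards. The 9 include Pkp1, which passed the filter only through BM MSC.

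Across the 15 libraries, which share 2 P0 Emcn+ libraries that weigh on every coefficient, Pearson's r of log2(CPM + 1) exceeded 0.8 for 15 of the 45 pairs of junction genes and was below 0 for 10. Pecam1 and Esam (0.984) and Cdh5 and Esam (0.979) were the closest pairs, Tjp1 and Jup had 0.897, and Jam2 had negative coefficients with Cldn5 (-0.761) and Jup (-0.744). Without the P0 Emcn+ libraries, over 13 libraries, Cdh5 and Esam had 0.953 and Pecam1 and Esam 0.947, whereas Cdh5 and Jup went from 0.698 to -0.172 and Tjp1 and Jup from 0.897 to 0.456. The sign of Jam2 turned there, to 0.148 with Cldn5 and 0.145 with Jup. Among all tested genes the profiles most like Esam were those of Mmrn2 (0.997), Tie1 (0.997) and Fgd5 (0.996), and those most like Cdh5 were Kit (0.988), Tie1 (0.984) and Cd93 (0.983). Pecam1 was most like Sox7 (0.990), Myct1 (0.990) and Ppp1r16b (0.988), and Cldn5 most like Csf2rb2 (0.995), Ushbp1 (0.994) and Gimap4 (0.992). Tjp1 was most like Myo10 (0.982), Dst (0.979) and Sh3tc2 (0.978), and Jup most like Tbc1d22a (0.980), Kcnh1 (0.966) and Slc7a7 (0.965). For F11r the closest were Arpc3 (0.965), Tomm40l (0.962) and Hrct1 (0.955), for Jam2 Gucy1a2 (0.934), Napepld (0.928) and Sfrp1 (0.912), for Jam3 Rpf2 (0.937), Tmem17 (0.929) and Hnrnph3 (0.908), and for Ocln Pde9a (0.960), Nfe2l3 (0.954) and AU021092 (0.943).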

How the data were processed

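The authors aligned reads with STAR against GRCm38 (nf-core pipeline), quantified them with Salmon, and deposited counts as whole numbers that carry no normalization, covering 44674 genes of 15 libraries. The members and gene lists were chosen with earlier results of these data known. Conditions, replicate numbers and batches came from the labels. By the methods replicates were independent cultures. The paper passaged Emcn- BMECs both as sorted cells and within whole marrow culture, and does not state which route gave the P1 to P4 libraries. By either route P1 to P4 were serial passages. Same-numbered passaged libraries may therefore share a culture, which the main fit does not model. Counts were tested in R 4.3.3 with edgeR 4.0.16 (TMM, filterByExpr with a minimum count of 10, quasi-likelihood F test, 1 coefficient per condition, all 15 libraries), leaving 19401 genes, 7 residual degrees of freedom and Benjamini-Hochberg adjustment over all of them. A call needed an adjusted p under 0.05 together with a log2 fold change beyond 1.5 in either direction. Standard errors are the log2 fold change over the root of F. All 10 members were named in every comparison, and of the other junction genes up to 3 called in each direction by size, of which 1 is not reported here. Alternatives were RLE factors, other filters, DESeq2 1.42.0 without and with ashr 2.2.63, a replicate block and leaving out each library. By the labels, same-numbered replicates of P0 and lung share a batch, as do those of P1, P2 and P3. Correlations of their deviations from the mean of each condition were 0.134 to 0.181 and 0.317 to 0.398, against -0.0941 to 0.111 for all other pairs of conditions. The replicate block is a term for these batches, in which both BM MSC libraries fall in batch c, so that it pairs no BM MSC library with a passaged one. Tested on simulated counts with 200 changed genes of 19401, edgeR called 191 for P0 Emcn+ against P0 Emcn-, 184 for P1 against P0 Emcn- and 189 for P3 against P1. False calls numbered 6, 7 and 4. The changed genes had a fixed size of change and a base level above a limit, and no batch effect was simulated. The simulation therefore does not cover junction genes of low level, such as Cdh5 and Cldn5 at P1. Exon lengths came from GENCODE M21, which holds 44118 of the identifiers. Counting intervals cover counting error only.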

Additional observations from a re-analysis of the deposited data

How the results depend on the processing

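Of 1629 alternative values for single genes, 1494 kept direction and call. Each library was left out in every comparison, also where it belonged to neither compared group. Such a library enters only through shared steps of the fit, so this share does not measure how robust the results are. The number of the 10 junction genes called changed by more than 1.5 times as follows. Lung ECs against P0 Emcn- BMECs gave 1 call, 2 with no filter, with DESeq2 and with DESeq2 and ashr, and 0 when the fit held the compared groups alone. BM MSC against P0 Emcn- BMECs gave 2 calls, and 1 with the replicate block, with only the compared groups and with ashr. It also gave 1 with P0 Emcn- replicate 1 and BM MSC replicate 2 both left out. P1 against P0 Emcn- BMECs gave 1 call, 2 with no filter and 0 with the replicate block or with only the compared groups. P3 against P1 gave 0 calls, and 1 with only P1 to P4 libraries. BM MSC against the mean of P1, P2 and P3 gave 5 calls and 1 with the replicate block, which is a term for batch and pairs no BM MSC library. Smaller changes were 8 to 7 for P0 Emcn+ against P0 Emcn- with the compared groups alone, 8 to 9 for lung ECs against P0 Emcn+ with the block, and 5 to 4 for BM MSC against passaged cells with the compared groups alone or with ashr. The replicate block changed no other count of junction genes by over 1.5 times. The causes of these changes were not tested, beyond the fewer libraries in the smaller fits.

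Leaving out 1 library at a time gave 7 to 8 calls for P0 Emcn+ against P0 Emcn-, 0 to 1 and 4 to 8 for lung ECs against P0 Emcn- and P0 Emcn+, 1 to 2 for BM MSC against P0 Emcn-, 0 to 2 for P1 against P0 Emcn-, 0 in every fit for P3 against P1 and 1 to 5 for BM MSC against passaged cells.

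Over all genes, P3 against P1 gave 43 calls, and 170 with no filter, 106 with the replicate block, 153 with only the compared groups, 276 with only P1 to P4 libraries, 303 with DESeq2, 150 with ashr and 0 to 78 without 1 library. Lung ECs against P0 Emcn- gave 743 calls, 145 with only the compared groups and as few as 406 without 1 library. BM MSC against P0 Emcn- gave 3630 and 2396 with only the compared groups. P1 against P0 Emcn- gave 1715, 968 with only the compared groups and 805 to 2196 without 1 library.

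Directions turned for some uncalled log2 fold changes. In lung ECs against P0 Emcn-, Tjp1 (0.0056) was -0.0021 with no filter and -0.0045 with at least 50 counts in 2 libraries, and without 1 library ranged from -0.39 to 0.31, Jup from -0.41 to 0.41, Cdh5 from -0.61 to 4.11 and Cldn5 from -2.36 to 3.18. In lung ECs against P0 Emcn+, Jam3 (0.0061) was -0.036 with RLE factors, -0.0057 with no filter, -0.035 with DESeq2, -0.028 with ashr and -0.23 to 0.25 without 1 library. In BM MSC against P0 Emcn-, F11r (-0.03) was 0.033 with RLE factors, 0.091 with only the compared groups, 0.18 with DESeq2, 0.049 with ashr and 1.5 with both libraries out, Cldn5 (-1.88) was 0.27 with both out, and Esam (0.16) was -0.11 with the replicate block. Without 1 library Cdh5 there ranged from -2.91 to 3.75, Pecam1 from -0.75 to 3.56, Cldn5 from -4.46 to 2.82, Esam from -3.32 to 3.65, Jam3 from -0.041 to 0.3 and F11r from -2.02 to 3.47. In P1 against P0 Emcn- the ranges were -1.73 to 1.51 for Pecam1, -4.57 to 0.97 for Cldn5, -2.31 to 2.0 for F11r and -0.04 to 0.46 for Tjp1. In P3 against P1 Jup ranged from -0.56 to 0.2. In BM MSC against passaged cells the ranges were -0.62 to 1.07 for Jam2, -1.31 to 1.47 for F11r and -0.27 to 0.052 for Jup, and the Jam2 slope over passages ran from -0.00484 to 0.0481.

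With 2 libraries per condition, and 1 at P4, an omitted library leaves 1 that is assumed to vary like the other conditions. Ocln was at or under 3 counts in P0 Emcn-, P1 and P3 groups and had no fold change between them, Esam and Ocln did not pass the filter for the passage slope, and Cldn5 was not tested in the smallest P3 against P1 fit.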
